A study of Homo sapiens with 18 samples.

Results

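The genes described here are 49 genes of DNA replication and mitosis, 22 that act around S phase and 27 that act in G2 and mitosis, out of 16575 genes measured by CAGE-seq in bladder cancer cells. They were taken as the rows of the expression table whose Ensembl identifier maps to one of the 49 symbols, and all 49 were present. The 18 libraries cover 3 human bladder carcinoma lines (HT-1376, RT-112 and CAL-29) in 6 variants each, 1 library per line and variant. HT-1376 was grown with 15% serum in DMEM, CAL-29 with 10% in DMEM and RT-112 with 10% in RPMI-1640, so line and medium cannot be told apart. Every variant went through 2 stable lentiviral transductions at 3 particles per cell, the first with WWOX or a blank control under puromycin and the second with AP-2α, AP-2γ or a blank control under G418, so the controls carry both vectors as well. KK received both blank controls, KA the control and AP-2α, KC the control and AP-2γ, WK WWOX and the control, WA WWOX and AP-2α, and WC WWOX and AP-2γ. The study compared each variant with KK and asked whether WA and WC lie between the single transductions. Each variant of a line is 1 selected population, so a difference between 2 variants of a line has no replicate check inside that line, and the study used the 3 lines as its replicates.

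The members fall into groups by what they do. MCM2 to MCM7 form the ring-shaped helicase that CDC6 and CDT1 load onto origins, CDC45 and the GINS proteins switch it on, PCNA is the sliding clamp that the RFC proteins place on DNA, POLA1 starts the new strands, and RRM1, RRM2 and TYMS make the nucleotides. CCNE1, CCNE2 and E2F1 drive the entry into S phase, and UHRF1 keeps DNA methylation on the copied strand. In G2 and mitosis, CDK1 with cyclins A and B opens division, AURKA, AURKB and PLK1 are mitotic kinases, BUB1, BUB1B and MAD2L1 belong to the spindle checkpoint, CDC20 and UBE2C serve the ubiquitin ligase that ends mitosis, KIF11, KIF20A, KIF23, TPX2, NUSAP1 and PRC1 build the spindle, and FOXM1 and MYBL2 are transcription factors of the late programme. Such genes are on mainly in dividing cells, S-phase genes through E2F factors and G2/M genes through CHR elements and CCAAT boxes in their promoters. In RNA from a whole culture, fewer cells in a phase and less RNA per cell cannot be told apart.

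CAGE counts 1 tag per capped 5′ end, so a level in CPM (reads of a gene scaled to a common library size) does not depend on gene length. The authors rejected tag clusters that were poorly reproduced or wide, so the share of tags kept may differ between genes. Levels of different genes can therefore be set beside each other only roughly. Whole reads could be worked back from the CPM, with 13357102 to 17958572 reads on genes per library (median 16823392.5), and 1 read was worth 0.0526 to 0.0709 CPM. A gene without reads has an upper limit of 3 reads, or 0.158 to 0.213 CPM, which covers counting error only. The tests took the genes that reached 5 CPM in 1 or more of 17 libraries, 12991 in all and 48 of the 49 members, and CCNE2 was left out with at most 4.14 CPM.

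The library labelled CAL-29 KC stood apart and was kept out of every test. Its log2 values correlated with those of HT-1376 libraries at a median r of 0.940, against 0.742 with the other CAL-29 libraries and 0.733 with RT-112, and 38 of the 48 tested members lay inside the range of HT-1376 while 25 lay inside that of the other CAL-29 libraries. For comparison, the other CAL-29 libraries correlated with each other at a median r of 0.912 to 0.933. The transduced genes were checked in each line. For WWOX itself, CAL-29 read 63.7 (KK) and 51.3 (KA) CPM without WWOX and 155 (WK), 69.3 (WA) and 62.4 (WC) CPM with it. RT-112 read 26.04 (KK), 23.5 (KA) and 25.9 (KC) CPM without WWOX and 22.3 (WK), 18.9 (WA) and 18.4 (WC) CPM with it. HT-1376 read 22.4 (KK), 24.7 (KA) and 16.9 (KC) CPM without WWOX and 18.6 (WK), 19.2 (WA) and 23.1 (WC) CPM with it. CAL-29 WK was the one WWOX library far above KK of its line, so the CAGE values did not mark the other WWOX variants in any line. CAGE reads capped 5′ ends, and where the RNA of the transduced copies starts is not given in the sources used here, so these values may miss it. The study tested the transductions at the protein level, which was not analysed here. TFAP2A, which encodes AP-2α, read 46.8 CPM in KA and 25.3 in WA against 18.01 in KK of RT-112. In HT-1376 KA stood at 100.7 CPM and WA at 69.9, next to 68.99 in KK and 76.9 in WK, so WA was not raised. In CAL-29 KA stood at 49.9 and WA at 86.7 against 35.4 in KK. CAL-29 WK, which did not receive AP-2α, stood at 61.7, above KA. TFAP2C, which encodes AP-2γ, was 264 CPM in KC and 143 in WC against 57.95 in KK of RT-112, where it also stood at 179.9 in WA, a variant that did not receive it. In HT-1376 KC stood at 214 CPM and WC at 163, next to 158 in KK, so WC was not raised above KK. It was above HT-1376 WK and WA, which received WWOX without AP-2γ and stood at 68.99 and 98.03. CAL-29 WC stood at 339 against 87.95 in KK. Of the bladder epithelium markers all 10 were present, with summed levels of 4986 to 26007 CPM, and 4 of 6 fibroblast markers summed to 5.33 to 59.6 CPM, the leukocyte marker CD14 to at most 0.50 CPM and the endothelial marker CDH5 to at most 5.07 CPM. The fibroblast markers DCN and PDGFRB, the leukocyte markers PTPRC, CD3E, MS4A1 and LYZ and the endothelial markers PECAM1, VWF, KDR and TEK had no row.

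Promoters are printed for 6 members on which the results turn or which show a motif of their class. The lines give the 120 bases up to the RefSeq start on GRCh38.p14, 5′ to 3′ on the strand of the gene. Capitals mark the E2F letters (TTTCCCGC, TTTCGCGC, TTTGCCGC or TTTGGCGC), the CHR letters (TTTGAA or TTCGAA) and the CCAAT box (CCAAT), each read on both strands. PCNA (minus strand, chr20:5126623-5126742) and MCM6 (minus strand, chr2:135876444-135876563) stand for the S-phase members. PRC1 (minus strand, chr15:90994536-90994655), CCNA2 (minus strand, chr4:121823884-121824003), KIF20A (plus strand, chr5:138178992-138179111) and NUSAP1 (plus strand, chr15:41332761-41332880) stand for the G2/M members.
PCNA: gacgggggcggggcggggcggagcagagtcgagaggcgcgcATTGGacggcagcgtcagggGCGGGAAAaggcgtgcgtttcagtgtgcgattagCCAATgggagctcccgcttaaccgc
MCM6: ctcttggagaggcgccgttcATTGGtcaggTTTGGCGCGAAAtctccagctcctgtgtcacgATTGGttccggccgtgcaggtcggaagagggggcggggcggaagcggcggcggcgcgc
PRC1: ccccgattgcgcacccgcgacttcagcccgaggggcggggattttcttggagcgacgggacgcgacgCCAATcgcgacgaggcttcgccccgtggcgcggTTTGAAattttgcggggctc
CCNA2: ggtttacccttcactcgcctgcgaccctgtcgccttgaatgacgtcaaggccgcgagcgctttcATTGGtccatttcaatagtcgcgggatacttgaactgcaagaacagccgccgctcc
KIF20A: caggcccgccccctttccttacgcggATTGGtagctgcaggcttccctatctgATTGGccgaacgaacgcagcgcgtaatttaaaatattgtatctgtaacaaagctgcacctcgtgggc
NUSAP1: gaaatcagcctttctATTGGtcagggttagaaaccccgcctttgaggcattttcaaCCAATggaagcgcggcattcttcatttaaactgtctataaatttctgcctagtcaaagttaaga

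In these windows PCNA showed 1 E2F match between CCAAT boxes, MCM6 a pair of overlapping E2F matches flanked by CCAAT boxes, and PRC1 a CCAAT box upstream of a CHR match. CCNA2, KIF20A and NUSAP1 showed CCAAT boxes and no E2F or CHR letters within these 120 bases, which says only that the letters searched are not there. Over the longer RefSeq window, from 250 bases before to 50 after the start, 41 of the 49 members had a promoter (19 S-phase and 22 G2/M members). The E2F letters were found in 14 of the 19 S-phase promoters and in 3 of the 22 G2/M promoters, against 5.59% of the 10012 promoters of tested genes. The CHR letters were found in 2 S-phase and 16 G2/M promoters, against 10.7% of tested genes, and the CCAAT box in 13 and 19, against 37.3%. The classes were named by function, and these counts describe letters, not binding.

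The lines differed in how strongly they expressed the members, and HT-1376 was the highest for most. Of the 22 S-phase members 13 had their highest mean in HT-1376, 5 in CAL-29 and 4 in RT-112, and of the 27 G2/M members 20 were highest in HT-1376, 3 in CAL-29 and 4 in RT-112. With TMM scaling the counts were 11, 3 and 8 for S phase and 19, 0 and 8 for G2/M. In the limma fit with terms for line and variant, 34 of the 48 tested members (17 S-phase and 17 G2/M) differed between the lines at an adjusted p under 0.05, but so did 86.8% of all genes, so the members were not set apart by differing. Without RT-112 the count was 16, and the share of all genes in that refit is not given here.

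CDC20, the activator of the anaphase ligase, had the highest mean of all members. HT-1376 read 759 (KK), 930.5 (KA) and 512 (KC) CPM without WWOX and 903 (WK), 799.5 (WA) and 847 (WC) CPM with it. RT-112 read 241 (KK), 307 (KA) and 267 (KC) CPM without WWOX and 264 (WK), 279.6 (WA) and 222 (WC) CPM with it. CAL-29 read 67.7 (KK) and 174 (KA) CPM without WWOX and 105 (WK), 63.8 (WA) and 308 (WC) CPM with it. Every HT-1376 library was above every library of the other lines, and CAL-29 ran from WA, the lowest of all 17 libraries, to WC, just above the highest RT-112 library. The mean was 792 ± 151 CPM (SD, n = 6) in HT-1376, 263 ± 29.6 CPM (SD, n = 6) in RT-112 and 144 ± 102 CPM (SD, n = 5) in CAL-29, and the log2 difference between HT-1376 and CAL-29 was 2.75 ± 0.30 (SE, adjusted p = 4.09e-06).

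MCM2, a helicase subunit, had the highest mean of the S-phase members. CAL-29 read 98.5 (KK) and 130.4 (KA) CPM without WWOX and 231 (WK), 106 (WA) and 273 (WC) CPM with it. HT-1376 read 397 (KK), 436 (KA) and 359 (KC) CPM without WWOX and 247 (WK), 254 (WA) and 289 (WC) CPM with it. RT-112 read 369 (KK), 271 (KA) and 351 (KC) CPM without WWOX and 331 (WK), 209.6 (WA) and 201 (WC) CPM with it. RT-112 and HT-1376 overlapped, with a log2 difference of -0.20 ± 0.26 (SE, adjusted p = 0.515), while CAL-29 was lower than HT-1376 by a log2 difference that stood at 1.02 ± 0.28 (SE, adjusted p = 0.00605) for HT-1376 minus CAL-29. MCM7, another subunit of the same ring, went the other way, with 247 ± 66.7 CPM (SD, n = 5) in CAL-29, 108 ± 16.1 CPM (SD, n = 6) in RT-112 and 101.5 ± 12.7 CPM (SD, n = 6) in HT-1376. CAL-29 read 219 (KK) and 231 (KA) CPM without WWOX and 224 (WK), 197 (WA) and 364 (WC) CPM with it. RT-112 read 128 (KK), 108 (KA) and 120.5 (KC) CPM without WWOX and 110.4 (WK), 94.97 (WA) and 84.5 (WC) CPM with it. HT-1376 read 110.4 (KK), 120.3 (KA) and 93.7 (KC) CPM without WWOX and 84.2 (WK), 98.7 (WA) and 101.5 (WC) CPM with it. Every CAL-29 library of MCM7 was above all others, and RT-112 and HT-1376 overlapped. Levels of the 6 MCM genes were far from equal, and MCM6 had the lowest, with 2.20 ± 0.768 CPM (SD, n = 6) in RT-112, 8.21 ± 3.56 CPM (SD, n = 6) in HT-1376 and 10.98 ± 5.35 CPM (SD, n = 5) in CAL-29.

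MYBL2 helps switch on late cell cycle genes and was next to CDC20 in level among G2/M members. CAL-29 read 75.3 (KK) and 111 (KA) CPM without WWOX and 168 (WK), 79.5 (WA) and 239.5 (WC) CPM with it. HT-1376 read 193 (KK), 325 (KA) and 163 (KC) CPM without WWOX and 169 (WK), 254 (WA) and 203 (WC) CPM with it. RT-112 read 259 (KK), 299.6 (KA) and 298 (KC) CPM without WWOX and 277 (WK), 223 (WA) and 246 (WC) CPM with it. The 3 lines overlapped, and HT-1376 minus CAL-29 was 0.81 ± 0.27 (SE, adjusted p = 0.0172) on the log2 scale. CDC6, the helicase loader, was also highest on average in CAL-29. CAL-29 read 139 (KK) and 66.8 (KA) CPM without WWOX and 46.3 (WK), 74.6 (WA) and 42.4 (WC) CPM with it. HT-1376 read 30.5 (KK), 46.5 (KA) and 25.8 (KC) CPM without WWOX and 10.6 (WK), 20.2 (WA) and 11.8 (WC) CPM with it. RT-112 read 11.9 (KK), 13.3 (KA) and 16.3 (KC) CPM without WWOX and 11.9 (WK), 9.84 (WA) and 10.6 (WC) CPM with it. CAL-29 KK, at 139 CPM, was the highest library and HT-1376 KA was the one HT-1376 library to reach into the span of CAL-29, and RT-112 minus CAL-29 was -2.49 ± 0.27 (SE, adjusted p = 3.17e-06).

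CENPA, the histone variant that marks the centromere, separated HT-1376 from both other lines. HT-1376 read 219 (KK), 260.5 (KA) and 137 (KC) CPM without WWOX and 175 (WK), 173 (WA) and 184 (WC) CPM with it. RT-112 read 68.9 (KK), 88.1 (KA) and 81.3 (KC) CPM without WWOX and 77.7 (WK), 73.2 (WA) and 73.2 (WC) CPM with it. CAL-29 read 103 (KK) and 98.3 (KA) CPM without WWOX and 62.1 (WK), 91.6 (WA) and 101.2 (WC) CPM with it. The lowest HT-1376 library was above all libraries of the other lines, which overlapped, and the RT-112 minus HT-1376 difference was -1.28 ± 0.15 (SE, adjusted p = 6.43e-06). PLK1, a mitotic kinase, separated CAL-29 instead. CAL-29 read 14.5 (KK) and 23.8 (KA) CPM without WWOX and 32.6 (WK), 16.6 (WA) and 85.2 (WC) CPM with it. RT-112 read 142 (KK), 191 (KA) and 162 (KC) CPM without WWOX and 156 (WK), 143 (WA) and 136 (WC) CPM with it. HT-1376 read 198 (KK), 194 (KA) and 123 (KC) CPM without WWOX and 171 (WK), 156 (WA) and 128 (WC) CPM with it. No CAL-29 library reached the lowest RT-112 or HT-1376 library, RT-112 and HT-1376 overlapped, and HT-1376 minus CAL-29 was 2.53 ± 0.34 (SE, adjusted p = 2.92e-05).

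At the low end stood CCNE2, an S-phase cyclin. CAL-29 read 0.620 (KK) and 0.610 (KA) CPM without WWOX and 2.21 (WK), 0.820 (WA) and 0.670 (WC) CPM with it. HT-1376 read 2.30 (KK), 4.14 (KA) and 1.06 (KC) CPM without WWOX and 0.970 (WK), 1.21 (WA) and 1.48 (WC) CPM with it. RT-112 read 1.33 (KK), 1.74 (KA) and 2.24 (KC) CPM without WWOX and 1.63 (WK), 0.560 (WA) and 1.81 (WC) CPM with it. All its values were above the 3-read limit, and the lines overlapped. BUB1B, of the spindle checkpoint, was the lowest G2/M member. CAL-29 read 7.34 (KK) and 2.21 (KA) CPM without WWOX and 5.47 (WK), 4.58 (WA) and 4.61 (WC) CPM with it. HT-1376 read 7.69 (KK), 10.2 (KA) and 8.15 (KC) CPM without WWOX and 2.06 (WK), 7.35 (WA) and 3.45 (WC) CPM with it. RT-112 read 2.83 (KK), 3.37 (KA) and 3.05 (KC) CPM without WWOX and 2.40 (WK), 1.96 (WA) and 2.17 (WC) CPM with it. The highest RT-112 library was above HT-1376 WK and CAL-29 KA, so all 3 lines overlapped. Between the lines in pairs, RT-112 and HT-1376 differed for 25 members against 61.8% of all genes (12 S-phase, 3 of them higher in RT-112, and 13 G2/M, all lower in RT-112). RT-112 and CAL-29 differed for 23 members against 71.6% of all genes, with 11 members higher and 12 lower in RT-112. HT-1376 and CAL-29 differed for 17 members against 61% of all genes, of which 15 were higher in HT-1376, among them all 10 G2/M members called.

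**Figure D1:**
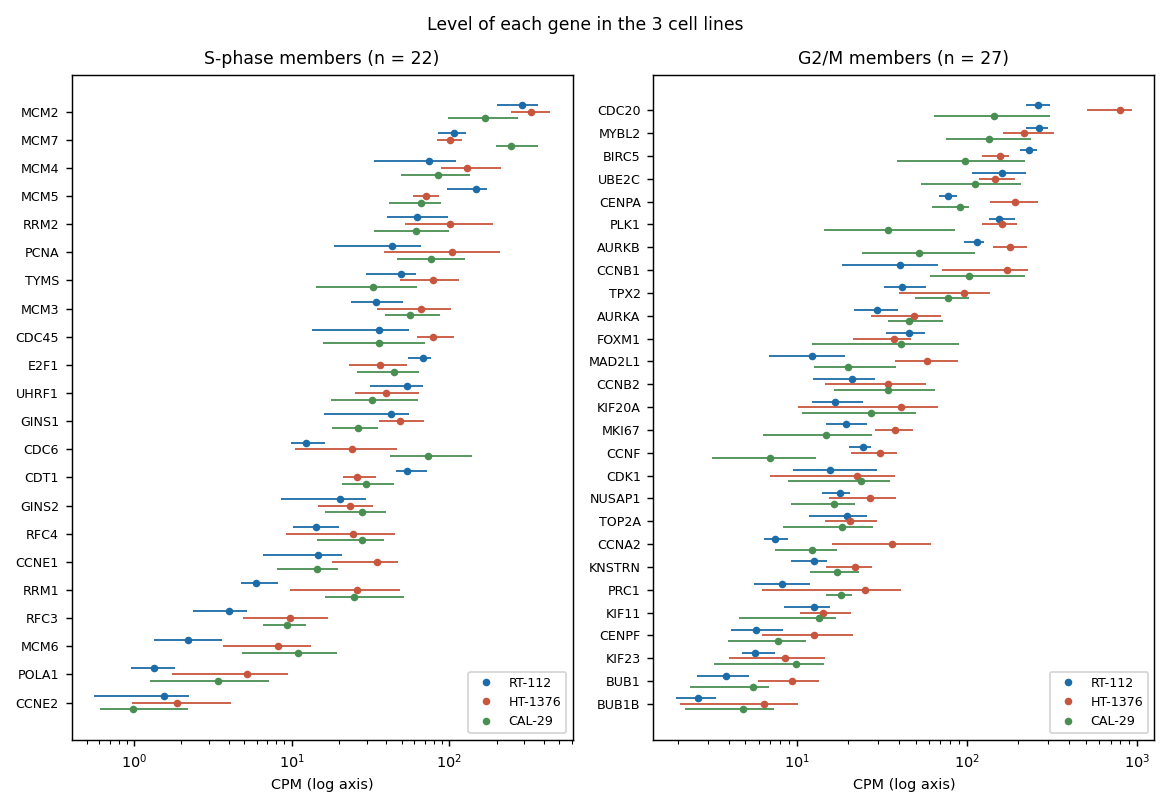
Level of each of the 49 members in CPM on a log axis, S-phase members on the left and G2/M members on the right, where points are the mean of a line and bars run from its lowest to its highest library (6 for RT-112, 6 for HT-1376 and 5 for CAL-29, without the library labelled CAL-29 KC). CDC20 and CENPA lie highest in HT-1376 and MCM7 and CDC6 in CAL-29, and PLK1 lies lowest in CAL-29.

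Within each line, the change of a member against KK was taken as the difference of log2(CPM + 0.5), which understates the change of low genes, and averaged over the 21 tested S-phase members and the 27 G2/M members. With 1 library on each side these averages have no test. They went in different directions in different lines. After WWOX alone, WK against KK, the S-phase mean was 0.39 in CAL-29, -0.85 in HT-1376 and -0.03 in RT-112, and the G2/M mean was 0.59, -0.76 and 0.05 in the same order. Over the lines this gave -0.16 ± 0.63 for S phase and -0.04 ± 0.68 for G2/M (SD, n = 3 lines), smaller than the spread between the lines.

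In HT-1376 WK, 14 S-phase and 13 G2/M members were lower than in KK by at least 0.5, and 32.2% of all genes were lower by as much, with an all-gene median of -0.15. The largest decreases were those of the spindle genes KIF20A (-2.67) and PRC1 (-2.31), and CDK1 and CDC20 were not lower, at 0.12 and 0.25. In CAL-29 WK, 12 S-phase and 15 G2/M members were higher by at least 0.5 against 19.5% of all genes, with FOXM1 at 2.05, KIF20A at 1.91 and MKI67, the antigen of cycling cells, at 1.62. RRM1 and CDC6 were the lowest members there, at -1.64 and -1.58. In RT-112 WK the tested members ran from -0.66 (MAD2L1) to 0.62 (CCNB2), with an all-gene median of 0.03. The G2/M mean there was 0.05 as deposited, 0.02 after TMM scaling and -0.002 after quantile normalization.

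With AP-2α alone, the G2/M means were above 0 in RT-112 and HT-1376. In KA against KK the S-phase and G2/M means were 0.06 and 0.41 in RT-112, where 5 G2/M and 3 S-phase members were higher by 0.5 (background 8.64%), led by CDK1 at 1.12. They were 0.29 and 0.23 in HT-1376, where 7 S-phase and 4 G2/M members were higher (background 20%) and the all-gene median was 0.16. In CAL-29 they were -0.33 and -0.10, with 6 S-phase and 10 G2/M members lower against a background of 36.8% and an all-gene median of -0.21, and TMM scaling turned these means to 0.01 and 0.23. The members of CAL-29 KA were split, since FOXM1 stood at 1.39, CDC20 at 1.36 and BIRC5, a survival and chromosomal passenger protein, at 1.20, while POLA1 stood at -2.12, MCM6 at -1.89 and KIF23 at -1.71. Over the lines the means were 0.01 ± 0.31 and 0.18 ± 0.26 (SD, n = 3 lines).

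AP-2γ alone could be followed in 2 lines. In KC against KK the S-phase and G2/M means were 0.28 and 0.40 in RT-112, where 4 S-phase and 11 G2/M members were higher by 0.5 (background 15.6%) and the all-gene median was 0.13. They were -0.32 and -0.12 in HT-1376, where 9 S-phase and 9 G2/M members were lower (background 17.2%), so the lines went apart. In HT-1376 KC the nucleotide gene RRM2 stood at -1.09, FOXM1 at -1.04 and MCM4 at -1.02, while CDK1 stood at 1.21. Against CAL-29 KK, the library with that label in CAL-29 gave 0.41 and 1.30, a difference that cannot be told apart from its likeness to HT-1376.

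In WA the S-phase members were lower than KK on average and the G2/M members were near it. The S-phase mean was -0.34 in CAL-29, -0.53 in HT-1376 and -0.54 in RT-112, or -0.47 ± 0.11 (SD, n = 3 lines), the only variant whose S-phase mean was on 1 side in every line by more than its SD, while the G2/M mean was 0.18, -0.17 and -0.04 in the same order, or -0.01 ± 0.17. At least 0.5 lower were 12 S-phase and 1 G2/M members in RT-112 (background 10.5%), 12 and 5 in HT-1376 (20.4%) and 8 and 2 in CAL-29 (11%). Since RT-112 WA also had a high TFAP2C level, the means were taken without it, at -0.43 ± 0.14 for S phase and 0.01 ± 0.24 for G2/M (SD, n = 2 lines). In WC the lines went apart again, with S-phase and G2/M means of -0.70 and -0.07 in RT-112, -0.92 and -0.81 in HT-1376 and 0.39 and 1.06 in CAL-29. At least 0.5 lower were 13 S-phase and 4 G2/M members in RT-112 WC (17%) and 17 and 17 in HT-1376 WC (30.9%), and at least 0.5 higher were 12 and 17 in CAL-29 WC (14.4%), although the all-gene median of CAL-29 WC was -0.50. Over the lines WC gave -0.41 ± 0.70 and 0.06 ± 0.94 (SD, n = 3 lines).

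**Figure D2:**
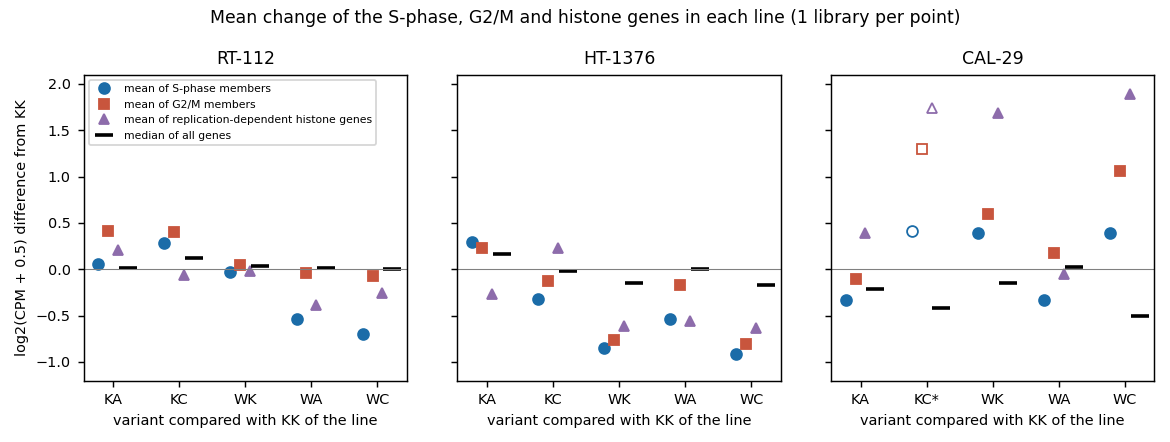
Mean change of the S-phase members, the G2/M members and the replication-dependent histone genes against KK of the same line, in log2(CPM + 0.5), for each variant and line, with the median of all genes as a bar and the library labelled CAL-29 KC as open symbols with a star on the axis. HT-1376 WK and WC lie lowest for both classes, CAL-29 WK and WC lie highest among the libraries tested, and the S-phase means of WA lie between -0.54 and -0.34 in the 3 lines.

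In WA, 12 of the 21 S-phase members and 4 of the 27 G2/M members were below KK in all 3 lines, against 9.82% of all genes. In WK it was 4 and 2 (15.6% of all genes) and in WC 4 and 2 (22.9%). In KA, 4 S-phase and 9 G2/M members were above KK in all 3 lines (11.6%), and in KC 5 and 10 were above it in both lines (31.5%). RRM1, the large subunit of ribonucleotide reductase, had the largest S-phase mean in WK among members with the same sign in every line, at -1.12 ± 0.94 (SD, n = 3 lines), with -1.64 in CAL-29, -1.68 in HT-1376 and -0.04 in RT-112. CAL-29 read 51.8 (KK) and 16.5 (KA) CPM without WWOX and 16.3 (WK), 18.9 (WA) and 21.8 (WC) CPM with it. HT-1376 read 32.4 (KK), 34.3 (KA) and 48.9 (KC) CPM without WWOX and 9.75 (WK), 18.7 (WA) and 11.5 (WC) CPM with it. RT-112 read 4.88 (KK), 7.47 (KA) and 8.23 (KC) CPM without WWOX and 4.74 (WK), 5.48 (WA) and 5.00 (WC) CPM with it. RT-112 WK was close to KK, and CAL-29 KK was far above the other CAL-29 libraries. BUB1B had the largest G2/M mean in WK, at -0.76 ± 0.80 (SD, n = 3 lines), and in WC, at -0.66 ± 0.37 (SD, n = 3 lines), with values of -0.62 in CAL-29, -1.05 in HT-1376 and -0.32 in RT-112 in the latter. For WC the S-phase member was POLA1, a subunit of the primase complex, at -1.25 ± 0.83 (SD, n = 3 lines). CAL-29 read 7.18 (KK) and 1.27 (KA) CPM without WWOX and 3.43 (WK), 3.60 (WA) and 1.52 (WC) CPM with it. HT-1376 read 5.79 (KK), 8.74 (KA) and 9.5 (KC) CPM without WWOX and 2.06 (WK), 3.58 (WA) and 1.75 (WC) CPM with it. RT-112 read 1.33 (KK), 1.53 (KA) and 1.82 (KC) CPM without WWOX and 1.31 (WK), 1.06 (WA) and 0.960 (WC) CPM with it. As for RRM1, CAL-29 KK stood highest in its line.

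In KA the members were CCNE1, cyclin E1, at 0.60 ± 0.50 (SD, n = 3 lines), and CDC20 at 0.67 ± 0.60 (SD, n = 3 lines). For CCNE1, CAL-29 read 8.07 (KK) and 16.98 (KA) CPM without WWOX and 19.6 (WK), 8.13 (WA) and 19.4 (WC) CPM with it. HT-1376 read 28.5 (KK), 47.4 (KA) and 17.9 (KC) CPM without WWOX and 37.8 (WK), 34.9 (WA) and 41.2 (WC) CPM with it. RT-112 read 20.3 (KK), 20.9 (KA) and 15.9 (KC) CPM without WWOX and 16.7 (WK), 7.94 (WA) and 6.63 (WC) CPM with it. WA and WC were the lowest libraries of RT-112. In KC they were RFC3, a clamp loader subunit, at 0.66 ± 0.37 (SD, n = 2 lines), and CDK1 at 0.82 ± 0.55 (SD, n = 2 lines). For RFC3, CAL-29 read 12.4 (KK) and 6.58 (KA) CPM without WWOX and 10.3 (WK), 9.27 (WA) and 8.32 (WC) CPM with it. HT-1376 read 10.1 (KK), 17.1 (KA) and 13.4 (KC) CPM without WWOX and 4.93 (WK), 8.50 (WA) and 4.99 (WC) CPM with it. RT-112 read 2.38 (KK), 5.21 (KA) and 4.97 (KC) CPM without WWOX and 3.43 (WK), 3.91 (WA) and 4.04 (WC) CPM with it. KK was the lowest RT-112 library and the highest CAL-29 library. For CDK1, CAL-29 read 19.9 (KK) and 8.90 (KA) CPM without WWOX and 35.2 (WK), 27.9 (WA) and 27.2 (WC) CPM with it. HT-1376 read 15.98 (KK), 36.7 (KA) and 37.6 (KC) CPM without WWOX and 17.4 (WK), 21.02 (WA) and 7.01 (WC) CPM with it. RT-112 read 13.5 (KK), 29.8 (KA) and 18.3 (KC) CPM without WWOX and 11.8 (WK), 10.8 (WA) and 9.52 (WC) CPM with it. KA of RT-112 and KC of HT-1376 were the highest libraries for CDK1 in those lines, and KA was the lowest in CAL-29.

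In WA they were CDC45, a part of the active helicase, at -0.77 ± 0.36 (SD, n = 3 lines), and KIF11, the motor that pushes spindle poles apart, at 0.54 ± 0.37 (SD, n = 3 lines). For CDC45, CAL-29 read 25.1 (KK) and 27.6 (KA) CPM without WWOX and 39.9 (WK), 15.9 (WA) and 70.7 (WC) CPM with it. HT-1376 read 94.4 (KK), 107 (KA) and 66.4 (KC) CPM without WWOX and 72.95 (WK), 67.4 (WA) and 62.6 (WC) CPM with it. RT-112 read 43.3 (KK), 40.3 (KA) and 55.4 (KC) CPM without WWOX and 42.7 (WK), 18.9 (WA) and 13.5 (WC) CPM with it. RT-112 WA and WC were far below the other RT-112 libraries, and CAL-29 WC was the highest CAL-29 library. For KIF11, CAL-29 read 13.2 (KK) and 4.59 (KA) CPM without WWOX and 16.7 (WK), 15.9 (WA) and 17.1 (WC) CPM with it. HT-1376 read 10.5 (KK), 16.9 (KA) and 13.8 (KC) CPM without WWOX and 12.2 (WK), 20.9 (WA) and 11.3 (WC) CPM with it. RT-112 read 10.5 (KK), 12.6 (KA) and 15.2 (KC) CPM without WWOX and 8.44 (WK), 14.03 (WA) and 15.7 (WC) CPM with it. CAL-29 KA was the lowest of all 17 libraries.

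**Figure D3:**
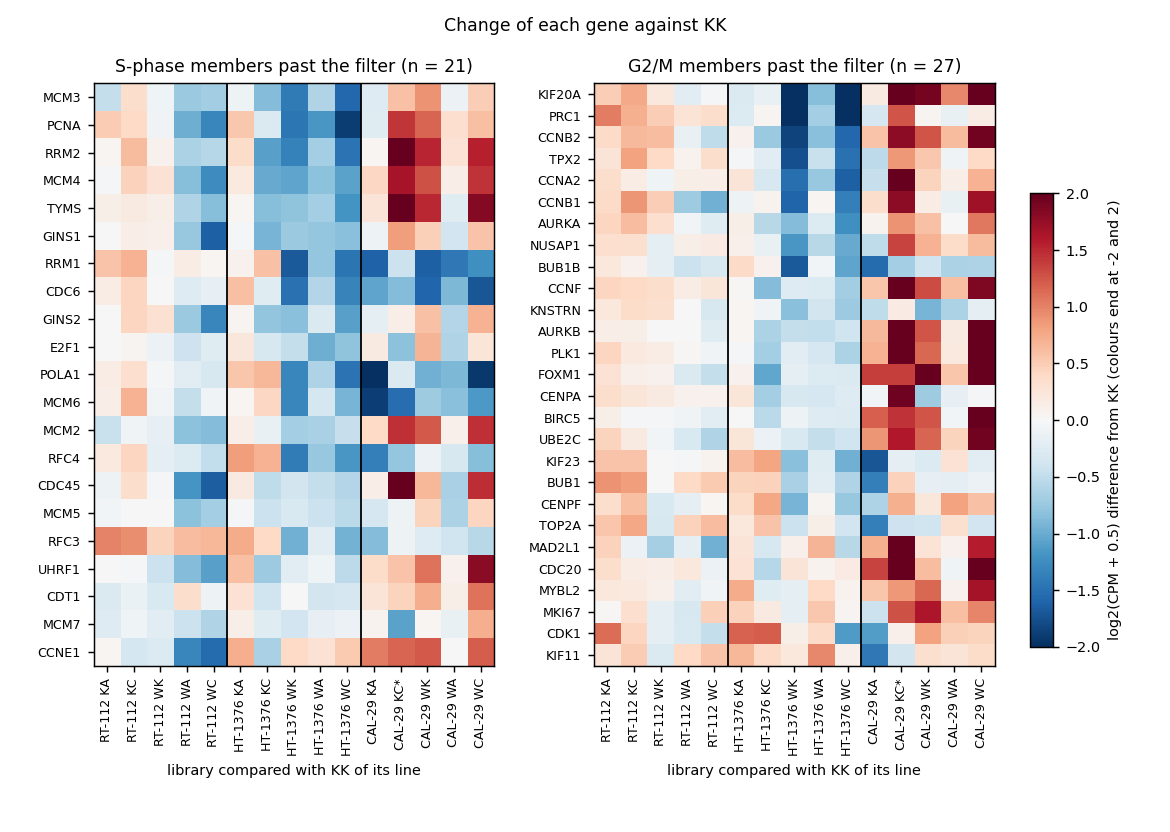
Change of each of the 48 tested members against KK of the same line in log2(CPM + 0.5), as a colour map with 1 column per library, S-phase members on the left and G2/M members on the right (red higher, blue lower, colours ending at -2 and 2, and a star on the library labelled CAL-29 KC). HT-1376 WK and WC are mostly lower, CAL-29 WK and WC are mostly higher, with CDC6, RRM1, POLA1 and MCM6 lower, and RT-112 WA and WC are lower mainly among S-phase members.

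The study's own comparisons, each variant against KK with the lines as replicates and no term for the line, called no member. In WA/KK, WC/KK, WK/KK, KA/KK and KC/KK the limma fit called 0 of 12991 genes (0% of all genes) at an adjusted p under 0.05. At an unadjusted p under 0.05 there were 27, 78, 37, 8 and 14 genes and 0 members in the order given, limma-voom and edgeR called 0 genes, and DESeq2 called 0, 7, 0, 0 and 4 genes and 0 members. With the cell line as a block the count of members called stayed 0 in each of the 5, and 2 members were lower in WK (CDC6 and RRM1), 2 in WA (E2F1 and MCM5) and 3 in WC (CDC6, POLA1 and RRM1) at an unadjusted p under 0.05, against 2.89%, 0.446% and 10.8% of all genes lower. KC entered with 2 libraries and KK with 3, so KC/KK in the unblocked fit also mixes lines and its log2 fold changes are not given.

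Putting all WWOX libraries (WK, WA and WC, 9 libraries) against all others (KK, KA and KC, 8 libraries), with terms for the line and for AP-2, gave S-phase members a lean to lower levels that did not pass the test. The limma fit called 0% of all genes, the median log2 difference was -0.32 over the S-phase members (20 of 21 below 0) and -0.17 over the G2/M members (18 of 27 below 0), and that of all genes was -0.07. At an unadjusted p under 0.05, 5 S-phase and 1 G2/M members were lower and 0 were higher, against 7.04% of all genes lower and 5.2% higher. The 6 members became 3 without RT-112, 1 without HT-1376 and 34 without CAL-29, with the all-gene shares of these refits not given here. They were CDC6 with a log2 difference of -0.80 ± 0.21 (SE, unadjusted p = 0.00163, adjusted p = 0.249), RRM1 with -0.88 ± 0.25 (SE, unadjusted p = 0.00263, adjusted p = 0.255), RFC4, a clamp loader subunit, with -0.69 ± 0.28 (SE, unadjusted p = 0.0234, adjusted p = 0.357), POLA1 with -0.72 ± 0.31 (SE, unadjusted p = 0.0331, adjusted p = 0.377), PCNA with -0.70 ± 0.31 (SE, unadjusted p = 0.042, adjusted p = 0.398) and KNSTRN, a kinetochore protein, with -0.39 ± 0.16 (SE, unadjusted p = 0.0227, adjusted p = 0.357). DESeq2 called CDC6 (adjusted p = 0.0149) and RRM1 (adjusted p = 0.0314), while limma-voom called 69 genes and edgeR 13, with 0 members in both. The share of all genes called by DESeq2 is not given here, so its calls do not set the members apart.

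For AP-2α over both WWOX states limma called 0% of all genes, 197 genes had an unadjusted p under 0.05, and MCM5 was the one member among them (-0.41 ± 0.18 SE on the log2 scale). For AP-2γ it also called 0%, with 341 genes and 0 members at an unadjusted p under 0.05. By edgeR 1 gene and 2 genes were called for AP-2α and AP-2γ, and by DESeq2 1 and 12, with 0 members in each. Whether the AP-2α or the AP-2γ effect differed between lines, and whether WA or WC departed from the sum of the single transductions, was tested for every gene, and limma called 0% of all genes in each of these 4 tests (181, 918, 424 and 84 genes at an unadjusted p under 0.05). The fit of AP-2 within line had a WWOX term common to all lines, and CAL-29 WC also received WWOX. A WWOX effect particular to CAL-29 therefore enters the AP-2γ effect there, and the counts that follow cannot be assigned to AP-2γ. For AP-2γ within CAL-29, which rests on WC alone, 42 genes were called (0.323% of all genes) and 0 members, with 3 S-phase and 10 G2/M members higher at an unadjusted p under 0.05 against 2.7% of all genes, and 142 genes called by DESeq2, 2 of them G2/M members.

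What differed between lines past the test was the difference between libraries with and without WWOX, called the WWOX effect here. The variants of a line, each a single selected population, stand in as replicates, and the p-values measure the spread between them. An effect of WWOX and a difference between selected populations therefore cannot be told apart. With a separate WWOX effect in each line and common AP-2 terms, 392 genes (3.02% of all genes) had a WWOX effect that depended on the line, and 4 were members, PCNA, KIF20A, NUSAP1 and CCNA2. All 4 were called in the contrast of HT-1376 with CAL-29 as well, which called 3.84% of all genes. RT-112 against HT-1376 called 1.25% and RT-112 against CAL-29 0.277% of all genes, with 0 members in both, so RT-112 was not shown to differ from either line for any member. The CAL-29 side without WWOX consists of KK and KA only.

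PCNA, the sliding clamp of the replication fork (minus strand of chr20:5114953-5126626, GENCODE 44), had the smallest p. HT-1376 read 145 (KK), 210.2 (KA) and 118 (KC) CPM without WWOX and 52.9 (WK), 64.5 (WA) and 38.5 (WC) CPM with it. RT-112 read 46.2 (KK), 65.9 (KA) and 61.03 (KC) CPM without WWOX and 44 (WK), 23.3 (WA) and 18.4 (WC) CPM with it. CAL-29 read 55.5 (KK) and 46.8 (KA) CPM without WWOX and 125 (WK), 70.5 (WA) and 84.7 (WC) CPM with it. The libraries with and without WWOX did not overlap in any line, being lower with WWOX in HT-1376 and RT-112 and higher with WWOX in CAL-29, although RT-112 WK was close to KK. The WWOX effect on the log2 scale was -1.58 ± 0.29 (SE) in HT-1376, -1.08 ± 0.29 (SE) in RT-112 and 0.96 ± 0.33 (SE) in CAL-29. It differed between the lines (adjusted p = 0.019), with HT-1376 minus CAL-29 at -2.54 ± 0.44 (SE, adjusted p = 0.0101).

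KIF20A, a kinesin of the central spindle needed for cytokinesis (plus strand of chr5:138178719-138187723), came next. HT-1376 read 67.5 (KK), 55.2 (KA) and 61.1 (KC) CPM without WWOX and 10.2 (WK), 37.1 (WA) and 14.2 (WC) CPM with it. RT-112 read 14.2 (KK), 20.1 (KA) and 24.4 (KC) CPM without WWOX and 16.4 (WK), 12.2 (WA) and 13.9 (WC) CPM with it. CAL-29 read 10.7 (KK) and 12.2 (KA) CPM without WWOX and 41.5 (WK), 21.4 (WA) and 50.4 (WC) CPM with it. HT-1376 WK and WC were far below the other HT-1376 libraries and WA lay between, CAL-29 WK and WC were far above KK and KA with WA between, and RT-112 overlapped. The WWOX effect was -1.77 ± 0.40 (SE) in HT-1376, -0.43 ± 0.40 (SE) in RT-112 and 1.54 ± 0.46 (SE) in CAL-29. The test between lines gave an adjusted p of 0.0278, and HT-1376 minus CAL-29 was -3.31 ± 0.61 (SE, adjusted p = 0.0129).

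NUSAP1 (plus strand of chr15:41320794-41381050) binds and bundles spindle microtubules. HT-1376 read 35.3 (KK), 38.1 (KA) and 31.9 (KC) CPM without WWOX and 15.5 (WK), 23.9 (WA) and 17.3 (WC) CPM with it. RT-112 read 16.2 (KK), 20.7 (KA) and 20.5 (KC) CPM without WWOX and 14.1 (WK), 17.6 (WA) and 18.2 (WC) CPM with it. CAL-29 read 13.4 (KK) and 9.29 (KA) CPM without WWOX and 22.04 (WK), 17.4 (WA) and 21.1 (WC) CPM with it. It was lower with WWOX in every HT-1376 library and higher in every CAL-29 library. The effect was -0.90 ± 0.23 (SE), -0.20 ± 0.23 (SE) and 0.81 ± 0.26 (SE) in HT-1376, RT-112 and CAL-29, with an adjusted p of 0.0394 between lines and HT-1376 minus CAL-29 at -1.71 ± 0.34 (SE, adjusted p = 0.0192).

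CCNA2, cyclin A2 (minus strand of chr4:121816444-121823883), serves both S phase and the entry into mitosis. HT-1376 read 51.6 (KK), 61.9 (KA) and 41.2 (KC) CPM without WWOX and 17.7 (WK), 30.4 (WA) and 16.2 (WC) CPM with it. RT-112 read 6.87 (KK), 8.94 (KA) and 7.70 (KC) CPM without WWOX and 6.43 (WK), 7.49 (WA) and 7.60 (WC) CPM with it. CAL-29 read 10.5 (KK) and 7.46 (KA) CPM without WWOX and 14.4 (WK), 11.5 (WA) and 17.3 (WC) CPM with it. Its 6 RT-112 values lay close together, HT-1376 split into high libraries without and low libraries with WWOX, and CAL-29 was higher with WWOX by a smaller step. The effect was -1.28 ± 0.27 (SE), -0.12 ± 0.27 (SE) and 0.69 ± 0.31 (SE) in the same order, with an adjusted p of 0.0416 between lines and HT-1376 minus CAL-29 at -1.97 ± 0.41 (SE, adjusted p = 0.023). Of the 4 genes, limma-voom and edgeR called PCNA only (adjusted p = 0.0341 and 0.0357).

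**Figure D4:**
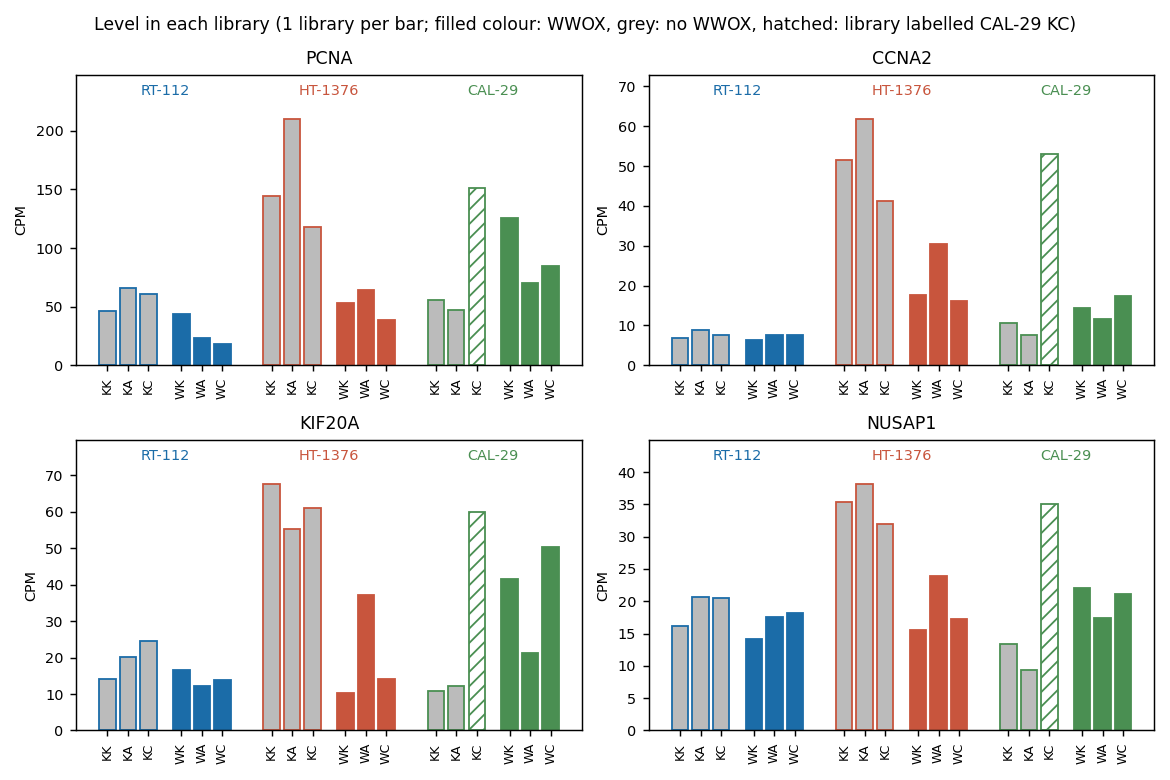
Level of PCNA, CCNA2, KIF20A and NUSAP1 in CPM as 1 bar per library, by line, filled for libraries that received WWOX, grey for those that did not, and hatched for the library labelled CAL-29 KC. In HT-1376 the libraries with WWOX lie below those without for all 4 genes, in CAL-29 they lie above KK and KA, and in RT-112 they are apart for PCNA only.

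The count of 4 members leaned on single libraries, as repeated fits with 1 library left out showed, which were chosen after seeing the data. It was 0 without HT-1376 WK, CAL-29 KA or CAL-29 WK, 1 without RT-112 KA, RT-112 WA, RT-112 WC, HT-1376 KK, HT-1376 KA or HT-1376 WC, 2 without RT-112 KK or RT-112 KC, and 13 without CAL-29 KK or CAL-29 WA. With the library labelled CAL-29 KC put back it was 0. The shares of all genes called with 1 library left out are not given here. These counts therefore describe the stability of the fit and are not a result about the members.

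Within HT-1376 the WWOX libraries had lower levels of 9 members at an adjusted p under 0.05, 4 S-phase and 5 G2/M, and no member was called higher, while 4.36% of all genes were called lower and 4.22% higher. Besides PCNA (adjusted p = 0.00621), CCNA2 (0.0119), KIF20A (0.018) and NUSAP1 (0.0281), these were RFC4 at -1.62 ± 0.35 (SE) with an adjusted p of 0.0131, PRC1 at -1.78 ± 0.39 (SE) with 0.015, RRM1 at -1.53 ± 0.37 (SE) with 0.0233, CDC6 at -1.26 ± 0.32 (SE) with 0.0307, and TPX2, which activates AURKA on the spindle, at -1.15 ± 0.31 (SE) with 0.0389. The median effect was -0.71 over the S-phase members and -0.63 over the G2/M members, against -0.13 over all genes. Effects near 0 included CDC20 at 0.25 ± 0.45 (SE), MYBL2 at -0.08 ± 0.35 (SE) and CCNE1 at 0.38 ± 0.43 (SE). The tools called 8 members (edgeR), 10 (limma-voom) and 9 (DESeq2). The all-gene count of DESeq2 is given in the last section, and those of edgeR and limma-voom are not given here. These counts therefore do not set the members apart from all genes.

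RFC4 loads the PCNA clamp. HT-1376 read 25.1 (KK), 45.2 (KA) and 41.1 (KC) CPM without WWOX and 9.23 (WK), 14.6 (WA) and 10.96 (WC) CPM with it. RT-112 read 14.6 (KK), 16.8 (KA) and 19.9 (KC) CPM without WWOX and 12.8 (WK), 12.02 (WA) and 10.2 (WC) CPM with it. CAL-29 read 38.3 (KK) and 14.5 (KA) CPM without WWOX and 35.2 (WK), 30.7 (WA) and 20.97 (WC) CPM with it. In HT-1376 and RT-112 every WWOX library was below every other, and CAL-29 overlapped, with KK highest and KA lowest. PRC1, the bundler of the central spindle on which KIF20A acts, was among the members called lower in HT-1376. HT-1376 read 39.4 (KK), 32.6 (KA) and 41.1 (KC) CPM without WWOX and 7.57 (WK), 24.4 (WA) and 6.30 (WC) CPM with it. RT-112 read 5.60 (KK), 11.9 (KA) and 9.46 (KC) CPM without WWOX and 8.11 (WK), 6.88 (WA) and 7.29 (WC) CPM with it. CAL-29 read 18.9 (KK) and 14.8 (KA) CPM without WWOX and 19.6 (WK), 16.9 (WA) and 21.1 (WC) CPM with it. HT-1376 WK and WC were the lowest of their line, WA lay between, and the other lines overlapped.

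WK and WC differed more in HT-1376 than WA did, most of all in G2/M, where the means against KK were -0.76, -0.81 and -0.17. Without HT-1376 WK 1 member was called, without HT-1376 KK, KA or WC 2, without CAL-29 KK or KA 16, without all of RT-112 1, without all of CAL-29 20, and with the library labelled CAL-29 KC put back 2. The count over all genes moved as well where it is given below, so these counts describe the stability of the fit and not the members. Other values differed with WWOX in HT-1376 as well. The bladder epithelium markers summed to 9762, 10773 and 9572 CPM in WK, WA and WC, against 14670.1, 12974 and 14374 in KK, KA and KC. The 4 fibroblast markers measured summed to 36.6, 59.6 and 42.6 CPM against 5.33, 12.6 and 12.6, most of it from COL1A1 and COL1A2. Their part in the lower levels of the members was not tested.

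In CAL-29 the WWOX effect had the opposite sign for most members, and none passed the test. The median was 0.40 over S-phase members (17 of 21 above 0) and 0.69 over G2/M members (25 of 27 above 0), against -0.01 over all genes, and 73 genes were called (0.562% of all genes), 0 of them members. At an unadjusted p under 0.05, 2 S-phase members and 9 G2/M members were higher and 1 S-phase member was lower, against 6.27% of all genes higher and 5.97% lower. MKI67 stood at 1.23 ± 0.34 (SE) with an adjusted p of 0.128, and DESeq2 called it (adjusted p = 0.0210) together with KIF20A (0.0345). The share of all genes called by DESeq2 in CAL-29 is not given here. For MKI67, CAL-29 read 8.74 (KK) and 6.36 (KA) CPM without WWOX and 27.9 (WK), 13.5 (WA) and 17.7 (WC) CPM with it. The groups were apart, with WK highest. In G2/M, WK and WC differed more from KK than WA did, as in HT-1376, with means of 0.59, 1.06 and 0.18. In S phase WA went the other way, with means of 0.39 (WK), 0.39 (WC) and -0.34 (WA). The S-phase mean of KA, on the side without WWOX, was also below KK as deposited, at -0.33. In the fits with 1 library left out, 12 members were called without CAL-29 WA, 1 without CAL-29 KA and 0 without any other library. The shares of all genes called in those fits are not given here. The summed bladder epithelium markers were also higher with WWOX, at 8419, 6391 and 7305 CPM in WK, WA and WC. They stood at 4986 CPM in KK and 5536 in KA, and their part in the difference was not tested.

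In RT-112 no gene was called for WWOX (0% of all genes, with 977 genes at an unadjusted p under 0.05), and DESeq2 called 35 genes and 0 members. All 27 G2/M members and 20 of 21 S-phase members had an effect below 0, with medians of -0.20 and -0.49 against -0.03 over all genes, and 4 S-phase members were lower at an unadjusted p under 0.05 (4.5% of all genes). These were PCNA at -1.08 ± 0.29 (SE), CDC45 at -1.03 ± 0.44 (SE), GINS1, which helps form the active helicase, at -0.81 ± 0.34 (SE) and CCNE1 at -0.94 ± 0.43 (SE). WA and WC were below KK and WK was close to it, with S-phase means against KK of -0.54, -0.70 and -0.03.

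Counted by the values alone, the libraries with and without WWOX did not overlap for 6 S-phase and 4 G2/M members in RT-112, all lower with WWOX, against 11.5% of all genes. In HT-1376 it was 9 S-phase and 11 G2/M members, all lower, against 22.7% of all genes, and in CAL-29 it was 2 S-phase and 9 G2/M members, all higher, against 9.01% of all genes. PCNA was the one member without overlap in all 3 lines. RFC4, POLA1, MCM6 and E2F1 among S-phase members and BUB1B and UBE2C among G2/M members were lower without overlap in both RT-112 and HT-1376. CCNA2, CCNB2, KIF20A and NUSAP1 were lower without overlap in HT-1376 and higher without overlap in CAL-29.

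**Figure D5:**
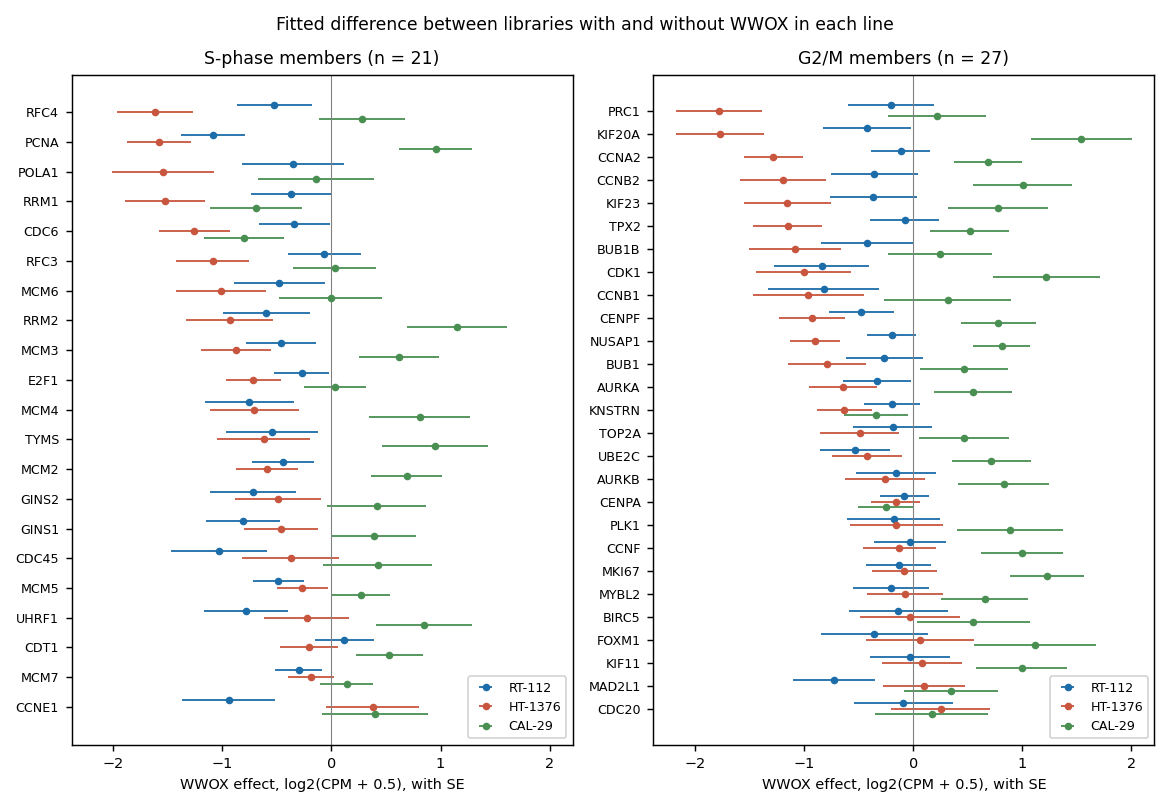
WWOX effect on each of the 48 tested members in log2(CPM + 0.5), as 1 point per line with its standard error as a bar, from the fit with a separate effect per line, members in the order of the HT-1376 effect. Points for HT-1376 lie mostly below 0, points for CAL-29 mostly above 0, and PCNA, KIF20A, NUSAP1 and CCNA2 are the members whose effect differed between lines at an adjusted p under 0.05.

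Other genes of the same machinery were taken from lists of replication genes (44 tested), mitosis genes (60), brakes of the cycle (24) and G1 cyclins and activators (18). For WWOX within HT-1376, limma called 4.36% of all genes lower and 4.22% higher, and the calls in these lists stand beside those shares. It called 1 replication gene lower (RPA1, a subunit that coats single-stranded DNA). Called lower as well were 6 mitosis genes (CENPU, CKAP2, DEPDC1, NDC80, RACGAP1 and SKA3) and 2 brakes (E2F8 and WEE1). Among G1 genes 1 was called higher (CDK6) and 3 lower (RBBP4, SKP2 and TFDP2). RACGAP1, a partner of KIF23 at the central spindle, had the largest of these effects at -2.69 ± 0.44 (SE) (adjusted p = 0.00289). For RACGAP1, HT-1376 read 36.6 (KK), 49.7 (KA) and 39.6 (KC) CPM without WWOX and 3.21 (WK), 11.3 (WA) and 5.86 (WC) CPM with it. RACGAP1, NDC80, the brake CDKN2C and RBBP4 also had a WWOX effect that differed between lines (adjusted p = 0.0229, 0.0487, 0.0403 and 0.0472), as did 3.02% of all genes. In CAL-29 none of these lists had a called gene, and 18 mitosis genes and 4 replication genes were higher with WWOX at an unadjusted p under 0.05, with 0 lower in both lists, against the same 6.27% of all genes higher.

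Over all lines no gene of these lists passed the test for WWOX. The mitosis genes with the smallest p that were lower were DSN1 (-0.65) and CENPU (-0.97), both of the kinetochore, and CKS2 (0.30) and KIFC1 (0.27) led those that were higher. Among replication genes PRIM2 (-0.55) and TIPIN (-0.53) were lower and POLD1 (0.19) was higher. Among brakes RBL1 (-0.51) and WEE1 (-0.51) were lower and FZR1 (0.29) and CDKN1A (0.49) higher, and among G1 genes RBBP4 (-0.46) and LIN52 (-0.43) were lower and CDK6 (0.91) and MYC (0.16) higher.

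CDKN1A, the p21 inhibitor of cyclin-dependent kinases, was higher with WWOX in RT-112 without passing the test. CAL-29 read 748 (KK) and 579 (KA) CPM without WWOX and 427 (WK), 701 (WA) and 324 (WC) CPM with it. HT-1376 read 186 (KK), 279.7 (KA) and 416 (KC) CPM without WWOX and 617 (WK), 305 (WA) and 562 (WC) CPM with it. RT-112 read 84.4 (KK), 89.02 (KA) and 75.1 (KC) CPM without WWOX and 180.5 (WK), 165 (WA) and 154 (WC) CPM with it. RT-112 separated into low libraries without and high libraries with WWOX, HT-1376 overlapped with WK highest and KK lowest, and CAL-29 overlapped with WC lowest and KK highest. The effect was 1.00 ± 0.34 (SE) in RT-112 (adjusted p = 0.502), 0.76 ± 0.34 (SE) in HT-1376 (adjusted p = 0.17) and -0.53 ± 0.39 (SE) in CAL-29 (adjusted p = 0.661), and its difference between lines did not pass the test (adjusted p = 0.172).

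CDKN1B, the p27 inhibitor, stood at 0.91 ± 0.22 (SE) in CAL-29 (adjusted p = 0.0802), -0.16 ± 0.19 (SE) in HT-1376 and -0.20 ± 0.19 (SE) in RT-112. For CDKN1B, CAL-29 read 30.1 (KK) and 29.9 (KA) CPM without WWOX and 71.3 (WK), 49.4 (WA) and 43.8 (WC) CPM with it. For RB1, the brake on E2F, CAL-29 read 25.2 (KK) and 7.58 (KA) CPM without WWOX and 18.8 (WK), 22.9 (WA) and 8.60 (WC) CPM with it, against at most 7.05 CPM in the other lines. In the case of CCND1, cyclin D1, CAL-29 read 517 (KK) and 362 (KA) CPM without WWOX and 244 (WK), 282 (WA) and 216 (WC) CPM with it, with an effect of -0.69 ± 0.28 (SE) there (adjusted p = 0.318), and MYC had effects of 0.54 ± 0.30 (SE), 0.27 ± 0.30 (SE) and -0.50 ± 0.34 (SE) in RT-112, HT-1376 and CAL-29.

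Replication-dependent histone genes, which are transcribed in S phase and whose RNA has no poly(A) tail, were read as well because the libraries were primed with random primers. Of 64 such genes, chosen by symbol, 61 were tested, and the values of near-identical copies are uncertain. Their mean change against KK was -0.62, -0.56 and -0.63 in WK, WA and WC of HT-1376 and 1.68, -0.06 and 1.89 in CAL-29. In RT-112 it was -0.02, -0.39 and -0.25. In CAL-29, 59 of the 61 were higher by at least 0.5 in WK and 57 in WC, against 19.5% and 14.4% of all genes. The summed histone level was 50415 and 59178 CPM there, against 15513 in KK, 20068 in KA and 14724 in WA. Limma called 2 of the 61 histone genes lower with WWOX in HT-1376, against 4.36% of all genes, so their calls did not set them apart. These were H4C12 and H2BC6, the latter at -2.08 ± 0.43 (SE) (adjusted p = 0.0103). For H2BC6, HT-1376 read 55.2 (KK), 46.2 (KA) and 63.8 (KC) CPM without WWOX and 7.57 (WK), 14.6 (WA) and 17.8 (WC) CPM with it. In CAL-29 limma called 0, against 0.562% of all genes. At an unadjusted p under 0.05, 26 were higher and 0 lower, against 6.27% of all genes higher and 5.97% lower. Over all lines H2BC6 (-0.89) and H2BC26 (-0.31) were the lower and H4C1 (0.32) and H1-1 (0.31) the higher genes with the smallest p, none past the test.

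The library labelled CAL-29 KC read 709 CPM for CDC20, 151 for PLK1, 395 for CENPA, 273 for MCM2, 104 for MCM7 and 75.9 for CDC6. CDC20, PLK1 and MCM7 lay inside the range of HT-1376 and outside that of the other CAL-29 libraries, CENPA lay above both ranges, and CDC6 lay inside the CAL-29 range and above that of HT-1376. For the 4 members whose WWOX effect differed between lines it read 151 (PCNA), 59.9 (KIF20A), 34.99 (NUSAP1) and 53.1 (CCNA2) CPM. Of the 48 tested members, 21 were above and 2 below the range of the other CAL-29 libraries.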

How the data were processed

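CAGE-seq libraries were made by the authors from total RNA with random primers and cap trapping, sequenced as single-end reads of 75 nt and mapped to hg38 with BWA and, for reads left over, with HISAT2 2.0.5 (version also in the submitters' processing notes). Tags were clustered by the authors with Paraclu in the RECLU pipeline and filtered by the irreproducible discovery rate and by cluster width. They were deposited as CPM per Ensembl gene, with 2 decimals. The annotation and the total behind the CPM are not given in the sources used here. Symbols and positions came from GENCODE 44 (16553 of 16575 identifiers matched without version, 11685 with the same version).

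The deposited CPM were whole multiples of the worth of 1 read for 99.97% to 99.99% of values (tolerance 0.006 CPM, against 10.9% to 16.1% with a wrong step), and recovered reads were used only for edgeR 4.0.16, DESeq2 1.42.0 and limma-voom as alternatives. Main fits used limma 3.58.1 in R 4.3.3 with a trended variance on log2(CPM + 0.5) and Benjamini-Hochberg adjustment over 12991 genes and 17 libraries. The fits were the variant alone (5 comparisons with KK, the study's design), line with WWOX and AP-2, WWOX or AP-2 within line, and line with variant. Cell lines are pairs by design: deviations from the variant means correlated at 0.722 to 0.915 (RT-112), 0.680 to 0.896 (HT-1376) and 0.663 to 0.881 (CAL-29) between libraries of the same line, so the line was tried as a block. P-values over libraries measure the spread between these libraries, which come from 3 lines. The limma fits were also run on simulated reads with planted WWOX changes only, whose outcome is not reported here. The AP-2 and departure fits had no planted change to find, and the other tools were not run on these reads.

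Members and lists were chosen with earlier results of these data known. Every library's value is printed for the members highest or lowest in level, those with the smallest adjusted p and, per variant, the member of each class with the largest mean change of the same sign in every line. MKI67 and RACGAP1 were picked beyond that rule, after their values were seen. Some genes of the other lists are not reported here. Other settings tried were a pseudocount of 0.05 or 2 CPM, no filter or one of 5 CPM in 3 libraries, TMM and quantile scaling, the block, all 18 libraries, each line or library left out, and the tools above. Plots used Python 3.11.15 with NumPy 2.4.6, pandas 2.3.3 and matplotlib 3.10.9.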

Additional observations from a re-analysis of the deposited data

Results flagged for a closer look

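The WWOX effect of 4 members differed between cell lines by the limma test of the difference itself, over 17 libraries. The adjusted p was 0.0190 for PCNA, 0.0278 for KIF20A, 0.0394 for NUSAP1 and 0.0416 for CCNA2. In each case the libraries with WWOX were lower in HT-1376 (3 of 3 below 3 of 3) and higher in CAL-29 (3 of 3 above 2 of 2). No explanation was tested.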

How the results depend on the processing

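No result turned its direction past a threshold under any alternative run, but untested means within a line could change sign with scaling. In CAL-29 KA the S-phase mean went from -0.33 to 0.01 with TMM and 0.04 with quantile normalization. The G2/M mean there went from -0.10 to 0.23 and 0.39. Values that answer a comparison were judged by whether they stayed within 1.5 times of the reported count or within its spread. Under planned settings 346 did and 13 did not, and under unplanned settings 49 did and 21 did not. Counts of members called that were 0 and stayed 0 are among these, so the tally says little about larger counts. Of values of single members, 123 kept their call and 29 kept their direction but not their call under planned settings, and 175 and 46 under unplanned ones. Of counts of all genes 33 stayed within 1.5 times and 17 did not under planned settings, and 15 and 19 under unplanned ones. Of counts of members past a fold, 22 stayed so with a log2 difference of 1 in place of 0.5 and 38 did not. With all lines joined, DESeq2 called 2 members for WWOX where limma called 0, and the share of all genes it called is not given here. The 4 members whose WWOX effect differed between lines became 2 with quantile normalization, 0 with all 18 libraries, 1 with limma-voom, 1 with edgeR and 0 to 4 with 1 line left out. With 1 library left out, which was chosen after seeing the data, the count ranged from 0 to 13. In all genes the 392 calls became 620 with quantile normalization, 661 with no filter, 0 with all 18 libraries, 231 with limma-voom and 0 to 1273 with 1 line left out. The 9 members called for WWOX in HT-1376 became 2 with all 18 libraries, 1 without RT-112, 20 without CAL-29 and 1 to 16 with 1 library left out, and the 1115 genes became 241, 223 and 3409 in the first 3 of these and 1885 by DESeq2. For WWOX in CAL-29, DESeq2 called 2 members where limma called 0, and leaving out 1 library gave 0 to 12. The shares of all genes called in these CAL-29 fits are not given here. The 34 members that differed between lines were 16 to 31 with 1 line left out, the lowest without RT-112. The shares of all genes in those refits are not given here. The G2/M mean of KC/KK was 0.53 with all 18 libraries, where the library labelled CAL-29 KC enters. With the cell line as a replicate block, 0 members were called in each of the 5 comparisons with KK, as without it, and leaving the block out of the joint WWOX and AP-2 fits also gave 0, so it changed no call. DESeq2 was not run for the tests over several coefficients (effects by line and the cell lines). Cause was not tested for any of these. Low members such as CCNE2, POLA1 and BUB1B rest on few reads, and the spread of 1 library per variant and line limits every difference within a line.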
